A study of Mus musculus with 8 samples.

Results

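Genes that mark brown and white fat cells were followed in 8 mouse heart libraries. The set holds 10 genes, matched by NCBI Gene number among 18215 genes in the tables, and all 10 were found. The thermogenic members are Ucp1, Dio2 and Cidea, the lipid droplet members are Cidec and Plin1, the secreted members are Adipoq, Cfd and Retn, and the remaining members are the fatty acid carrier Fabp4 and the carbonic anhydrase Car3. The members were chosen by their CPM levels in these same libraries, which were known when the set was drawn up, so their levels and group differences are given as a description and support nothing by themselves. The study sequenced polyadenylated mRNA from mouse hearts, 4 libraries with a Carns transgene (TG) and 4 from wild-type mice (WT). Carns1 encodes carnosine synthase, which makes carnosine and related histidyl dipeptides. The labels do not give the strain, age or sex of the mice, the promoter of the transgene, the chamber sampled, or whether each library came from its own animal, so a p-value here covers library-to-library spread that may be technical.

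Fat lies on the surface of the heart and around the large vessels, and a heart sample can carry some of it. White fat cells store triglyceride in a single large droplet coated by perilipin 1 and release adiponectin, adipsin and resistin. Brown fat cells burn fuel for heat through uncoupling protein 1 in the inner mitochondrial membrane. That programme is driven by noradrenaline through the beta-3 adrenergic receptor and cyclic AMP, and by local conversion of thyroxine to active thyroid hormone by type 2 deiodinase, the product of Dio2. In a bulk sample, fewer cells of a type and less RNA per cell cannot be told apart.

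The libraries held between 6261193 and 7897629 expected counts. Carns1 stood at 19071 to 24288 counts per 1000000 (CPM, scaled between libraries by TMM) in the TG libraries, against 44.5 to 73.3 CPM in those labelled WT. Ventricular muscle markers summed to between 61563 and 76527 CPM over the 8 libraries. TG replicate 2 stood apart in the fat genes, and results that rest on it are given with and without it.

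The sequences just upstream of 3 members are shown because their levels were spread over the libraries in 3 different ways: Ucp1 was above 3 counts in TG replicate 2 alone, Adipoq was above it in further libraries, and Dio2 was above it in all libraries but WT replicate 2. Each run covers 250 bases before the transcription start on the strand of the gene, from RefSeq on build GRCm38.p6. They lie at chr8:83290098-83290347 on the plus strand for Ucp1, chr12:90739039-90739288 on the minus strand for Dio2 and chr16:23146286-23146535 on the plus strand for Adipoq. Capitals mark matches on either strand to the cyclic AMP response element TGACGTCA, its shorter form TGACG, the PPAR element (a direct repeat), the TATA box TATAAA and the CCAAT box CCAAT.
Ucp1: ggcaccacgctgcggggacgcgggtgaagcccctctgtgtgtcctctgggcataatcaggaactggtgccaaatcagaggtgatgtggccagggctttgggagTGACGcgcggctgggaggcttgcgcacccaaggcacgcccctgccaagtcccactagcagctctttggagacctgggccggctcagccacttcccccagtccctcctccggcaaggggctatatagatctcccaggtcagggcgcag
Dio2: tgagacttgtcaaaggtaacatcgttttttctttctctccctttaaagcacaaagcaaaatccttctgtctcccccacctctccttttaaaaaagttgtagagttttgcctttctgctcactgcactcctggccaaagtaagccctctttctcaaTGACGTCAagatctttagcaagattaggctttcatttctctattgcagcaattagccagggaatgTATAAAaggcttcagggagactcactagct
Adipoq: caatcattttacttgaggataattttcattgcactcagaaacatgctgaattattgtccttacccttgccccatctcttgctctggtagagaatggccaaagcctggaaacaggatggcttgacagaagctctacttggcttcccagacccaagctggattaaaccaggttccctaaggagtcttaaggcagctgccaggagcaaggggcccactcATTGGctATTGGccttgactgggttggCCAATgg

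Among the 7 members for which a window was used, Dio2 was the 1 with a full cyclic AMP response element in it. The element started 95 bases before the start, and Dio2 also held a TATA box at 30 bases. The full element occurs in 1.55% of 32851 promoters in the table and the TATA box in 12.4%. Ucp1 held the short form TGACG at 147 bases, which 17.8% of promoters hold and which the full element of Dio2 contains on both strands. Adipoq held 3 CCAAT boxes, at 34, 27 and 7 bases, where 33.8% of promoters hold at least 1. No match to the PPAR element, present in 0.338% of promoters, was found in the windows of these 7 members. A match is a description of letters and no more.

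Every member was highest in TG replicate 2. Over the 13166 genes with a mean of at least 1 CPM, 15.4% were highest in that library. Of the 10 members, 8 stood at least 4-fold above the median of the other 7 libraries there (after adding 0.5 CPM to both), where 0.433% of the 13166 genes did. Fabp4 and Cidea were the members below that fold. In TG replicate 4 the members Cfd, Cidec and Car3 passed the same fold, against 0.182% of genes, and in WT replicate 1 Cfd alone did, against 0.0911% of genes. No member passed it in the other 5 libraries. Members entered the proposal through such values, so nothing is read from these shares.

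**Figure D1:**
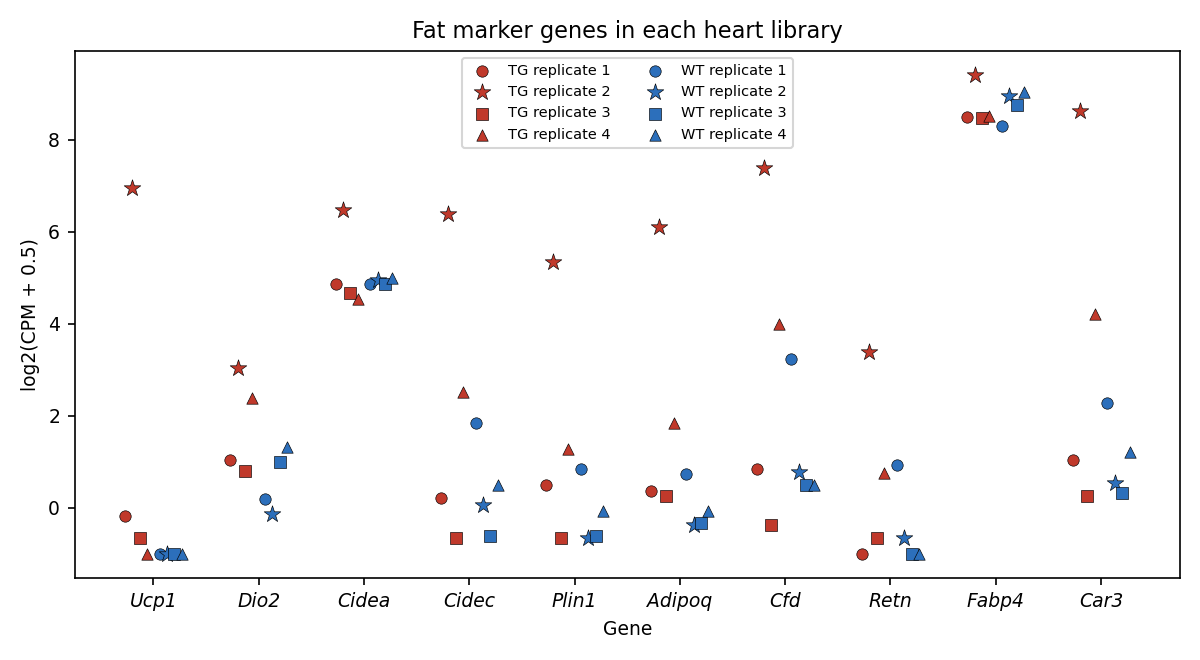
Level of each fat marker gene in each heart library, as log2(CPM + 0.5) on the vertical axis, with TG in red, WT in blue and a marker shape for each replicate. TG replicate 2, the red star, is the highest point for all 10 genes, and TG replicate 4 and WT replicate 1 come next for Adipoq, Cfd, Cidec, Plin1 and Car3.

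The thermogenic members did not share a pattern outside TG replicate 2. Ucp1 (NCBI Gene 22227), the uncoupling protein of brown fat, had 779 counts or 124 CPM in TG replicate 2. It had 3 counts in TG replicate 1, 1 count in TG replicate 3 and 0 counts in TG replicate 4 and in all 4 WT libraries. Ucp1 was thus seen at more than a few reads in a single library. A count of 0 allows up to 3 counts, which is 0.386 CPM in WT replicate 1 and 0.478 CPM in WT replicate 4, for counting error only.

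Dio2 (NCBI Gene 13371), which activates thyroid hormone, stood at 1.57, 7.77, 1.25 and 4.75 CPM in TG replicates 1 to 4 and at 0.64, 0.41, 1.5 and 1.99 CPM in WT replicates 1 to 4. TG replicates 2 and 4 were above every WT library, while TG replicates 1 and 3 lay among the WT values. Its counts ran from 3 to 49 per library, so single values carry a large counting error. The members' libraries also differ in depth: TG replicates 1 and 3 and WT replicates 1 and 2 had more than 7000000 counts and the other libraries fewer. Within the deeper libraries both TG values of Dio2 lay above both WT values, and within the shallower libraries they did as well. The same was not counted over all genes, so nothing is read from it.

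Cidea (NCBI Gene 12683), a lipid droplet protein of brown fat cells, was present in every library. It stood at 28.8, 88.5, 25.0 and 22.9 CPM in TG replicates 1 to 4 and at 28.6, 30.6, 28.9 and 31.5 CPM in WT replicates 1 to 4. TG replicate 2 was 59.7 CPM above the median of the other libraries, and the other 3 TG libraries averaged 25.6 ± 3.0 CPM (SD, n = 3) against 29.9 ± 1.4 CPM (SD, n = 4) in WT.

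The lipid droplet members followed another order. Cidec (NCBI Gene 14311), which helps droplets fuse, stood at 0.65, 83.0, 0.14 and 5.20 CPM in TG replicates 1 to 4 and at 3.09, 0.55, 0.15 and 0.92 CPM in WT replicates 1 to 4. Plin1 (NCBI Gene 103968), the perilipin that guards the droplet of fat cells, had TG values of 0.91, 40.3, 0.14 and 1.93 CPM and WT values of 1.29, 0.14, 0.15 and 0.46 CPM. For both genes TG replicate 2 was highest, TG replicate 4 second with WT replicate 1 next, and the groups overlapped.

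The secreted members had nearly the same order. Adipoq (NCBI Gene 11450), the adiponectin gene, stood at 0.78, 68.4, 0.70 and 3.12 CPM in TG replicates 1 to 4 and at 1.16, 0.27, 0.30 and 0.46 CPM in WT replicates 1 to 4. Cfd (NCBI Gene 11537), which encodes the complement protease adipsin, had TG values of 1.30, 168, 0.28 and 15.4 CPM and WT values of 8.89, 1.23, 0.90 and 0.92 CPM. In both genes TG replicate 4 and WT replicate 1 lay above the remaining 5 libraries. Retn (NCBI Gene 57264), the resistin gene, had 0, 63, 1 and 8 counts in TG replicates 1 to 4 and 11, 1, 0 and 0 counts in WT replicates 1 to 4, so WT replicate 1 came second for this gene.

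Car3 (NCBI Gene 12350), a carbonic anhydrase abundant in fat and in slow skeletal muscle, stood at 1.57, 393, 0.70 and 18.1 CPM in TG replicates 1 to 4 and at 4.38, 0.95, 0.75 and 1.83 CPM in WT replicates 1 to 4. Fabp4 (NCBI Gene 11770), a fatty acid carrier of fat cells, capillary endothelium and macrophages, was abundant everywhere, at 359, 683, 353 and 364 CPM for TG replicates 1 to 4 and at 317, 493, 432 and 528 CPM for WT. TG replicate 2 was the highest Fabp4 library, 319 CPM above the median of the other libraries, and 3 WT libraries lay above the other 3 TG libraries. The endothelial markers summed to 1287 CPM in TG replicate 2 and to between 1362 and 1714 CPM in the other libraries, but the 6 markers did not move as one. Cdh5, Tie1 and Egfl7 were lowest in TG replicate 2, Pecam1 and Kdr were lowest in WT replicate 1, and Emcn was highest in TG replicate 2, at 74.1 CPM against 41.6 to 69.8 CPM.

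Compared per length, in the FPKM values deposited by the authors, the members differed widely in level within TG replicate 2. Fabp4 stood at 1104 FPKM, Car3 at 258, Cfd at 186, Cidea at 77.4, Ucp1 at 75.8, Adipoq at 56.3 and Cidec at 49.0 FPKM. Plin1 stood at 21.4, Retn at 17.1 and Dio2 at 1.20 FPKM. In the other 7 libraries the medians were 599.6 FPKM for Fabp4 and 24.8 FPKM for Cidea and at most 1.29 FPKM for the other 8 members. The set therefore splits into a pair of genes with a steady level in these hearts and 8 genes that were low in most of the libraries. All members together took 0.168% of the counts of TG replicate 2 and between 0.0365% and 0.0590% of the others.

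The relative amounts of the members were set beside each other in the 3 libraries with the most Adipoq counts, chosen after the values were seen. Of the Ucp1 and Adipoq counts together, Ucp1 made up 64.4% in TG replicate 2 (95% Wilson interval 61.6% to 67.0%, 1210 counts). In TG replicate 4 it made up 0 of 21 counts, which allows a share of up to 14.3%, and in WT replicate 1 it made up 0 of 9 counts, which allows up to 33.3%. Both limits lie below the share in TG replicate 2. In TG replicate 1, outside these 3 libraries, Ucp1 made up 3 of 9 counts. That share, 33.3% (12.1% to 64.6%), overlapped the interval of TG replicate 2. In TG replicate 3 it made up 1 of 6 counts (16.7%, 3.0% to 56.4%), which did not. In WT replicates 2 to 4, with 0 Ucp1 counts, the limit was 100%. The limits and intervals cover counting error within single libraries only.

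The shares of the other members differed from gene to gene. Of the Car3 and Adipoq counts, Car3 made up 85.2% (83.9% to 86.4%) in TG replicate 2, 85.3% (78.6% to 90.2%) in TG replicate 4 and 79.1% (64.8% to 88.6%) in WT replicate 1. Plin1 made up 37.1% (33.5% to 40.8%), 38.2% (23.9% to 55.0%) and 52.6% (31.7% to 72.7%) of the Plin1 and Adipoq counts in the same order. The intervals of these libraries overlapped for both genes, at depths of 19 to 143 counts in the smaller libraries. Cidec made up 54.8% (51.7% to 58.0%), 62.5% (49.4% to 74.0%) and 72.7% (55.8% to 84.9%), and these intervals overlapped as well. For Cfd the share was 71.0% (68.7% to 73.3%) in TG replicate 2, below 83.2% (75.7% to 88.7%) in TG replicate 4 and 88.5% (79.5% to 93.8%) in WT replicate 1, and neither interval overlapped the first. Retn made up 12.8% (10.1% to 16.0%) in TG replicate 2 and 55.0% (34.2% to 74.2%) in WT replicate 1. In TG replicate 4 it made up 27.6% (14.7% to 45.7%), which overlapped both. Dio2 made up 10.2% (7.81% to 13.2%) in TG replicate 2 and 60.4% (46.9% to 72.4%) in TG replicate 4 (Wilson intervals). In WT replicate 1 it made up 35.7% (16.3% to 61.2%), which overlapped TG replicate 4 alone.

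**Figure D2:**
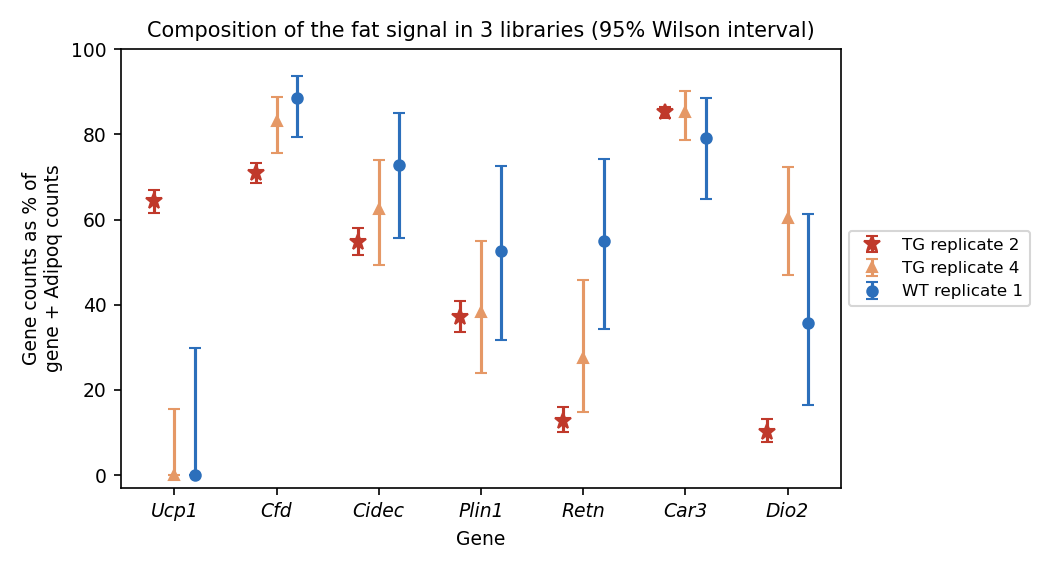
Counts of each gene as a percentage of its own counts plus those of Adipoq, in TG replicate 2, TG replicate 4 and WT replicate 1, with bars for the 95% Wilson interval of counting error. Ucp1 stands at 64.4% in TG replicate 2 and at 0% in the other libraries shown, while Car3, Plin1 and Cidec have overlapping intervals in all 3.

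Between the groups, no member passed the threshold. The comparison asks which heart transcripts differ with the Carns transgene, and edgeR's quasi-likelihood test over all genes, with Benjamini-Hochberg adjustment at 0.05, called 2 of 12670 tested genes (0.0158%). The filter on low counts let 4 members into the test, Cidea, Car3, Fabp4 and Dio2, and 0 of them were called. The other 6 members were too low in most libraries to be tested. In the edgeR test 442 of the 12670 genes had an unadjusted p under 0.05, a share below 0.05 itself. Car3 and Dio2 were among them, and nothing is read from that. DESeq2 called 16 of 18148 genes (0.0882%) and 0 members, and it gave no adjusted p for Ucp1, Adipoq, Cidec, Plin1 and Car3.

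The fitted log2 fold change of TG over WT was 5.65 (SE 1.60) for Car3, with an adjusted p of 0.882 (edgeR, Benjamini-Hochberg). It was 1.75 (SE 0.61) for Dio2, 0.46 (SE 0.36) for Cidea and -0.01 (SE 0.22) for Fabp4, each with an adjusted p of 0.9995 by the same test. The groups overlapped in all 10 members, but overlap was not counted over all tested genes, so nothing is read from it. Without TG replicate 2 the log2 fold change of Car3 was 1.71, that of Dio2 1.16, that of Cidea -0.22 and that of Fabp4 -0.30.

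On group means of CPM plus 0.5, 9 of 10 members were higher in TG, with a median log2 difference of 3.62 over the members and of -0.00 over all tested genes. Without TG replicate 2, 8 of 10 were higher and the median was 0.57. Within the deeper libraries 3 of 10 members were higher in TG and the median was -0.21. Within the shallower libraries, which hold TG replicates 2 and 4, all 10 were higher and the median was 5.07. With the depth class as a covariate, 28 of 12670 tested genes were called, and 1 of 4 tested members. That member was Dio2 (log2 fold change 1.70, edgeR with Benjamini-Hochberg adjusted p = 0.045). No other fit run called it, and it was chosen from these same libraries, so nothing is read from that call.

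**Figure D3:**
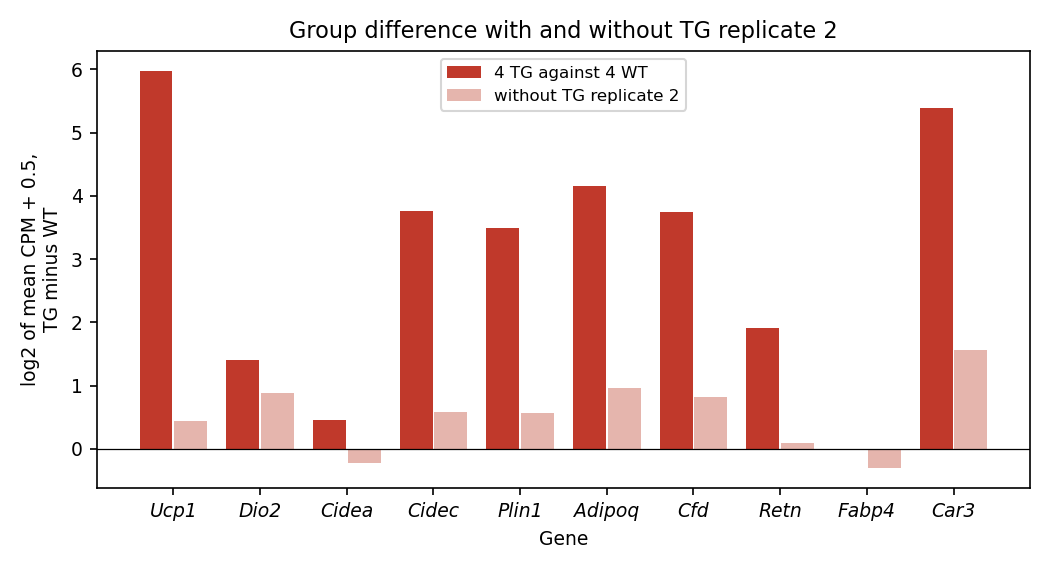
Difference between the TG and WT group means of each fat marker gene, as log2 of the mean CPM plus 0.5, with all 4 TG libraries (dark bars) and without TG replicate 2 (light bars). Ucp1 drops from 5.98 with all libraries to below 1 without TG replicate 2, and Cidea passes below 0.

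Other genes of white and general fat cells were read from a list of 18, of which 14 were highest in TG replicate 2 and 7 stood at least 4-fold above the median of the other libraries there. Of the 18, 11 were tested between TG and WT and 0 were called, with 8 higher and 3 lower in TG and a median log2 fold change of 0.15. Pck1, the enzyme that feeds glycerol synthesis in fat cells, stood at 136 CPM in TG replicate 2 and at 0.27 to 1.93 CPM in the other libraries. Adrb3, the beta-3 adrenergic receptor, stood at 7.93 CPM against at most 0.15 CPM. Acvr1c, an activin receptor of fat cells, stood at 3.65 CPM against at most 0.30, and the leptin gene Lep at 3.49 CPM against at most 0.15. Lpl, the lipoprotein lipase and most abundant gene of the list by FPKM, stood at 3131 CPM in TG replicate 2 and at 1706 to 3259 CPM elsewhere, so it did not set that library apart.

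The other brown fat genes were 13, of which 8 were highest in TG replicate 2 and 2 passed the 4-fold level there. Otop1, a proton channel of brown fat, stood at 7.93 CPM in TG replicate 2 and at most 0.14 CPM in the others. Slc27a2, a fatty acid transport protein, stood at 5.08 CPM in TG replicate 2 and was at 0 in the other 7 libraries. Nrg4, a factor secreted by brown fat, stood at 8.57 CPM against 1.99 to 3.86 CPM. The coactivator Ppargc1a was highest in TG replicate 4, at 149.6 CPM, against 88.5 CPM in TG replicate 2 and 43.4 to 111 CPM in the others. The potassium channel Kcnk3, the most abundant of the list by FPKM, stood at 547 CPM in TG replicate 2 and at 479 to 631 CPM elsewhere. Of 10 tested genes 10 were higher in TG and 0 were called, with a median log2 fold change of 0.12. The median over all tested genes was -0.002. Directions were not counted over all tested genes, so nothing is read from such counts in this or the other lists.

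Mitochondrial and lipid genes that brown fat shares with heart muscle gave no such pattern. None of the 6 was highest in TG replicate 2 and none passed the 4-fold level there. Cox8b, a cytochrome oxidase subunit, stood at 1095 CPM in TG replicate 2 and at 924 to 1667 CPM in the others, and Fabp3, the heart fatty acid carrier, at 3554 CPM against 2937 to 4288 CPM. Plin5 stood at 110 CPM against 84.4 to 135 CPM and Cpt1b at 896 CPM against 798 to 1146 CPM. All 6 were tested, 2 higher and 4 lower in TG, and 0 were called, with a median log2 fold change of -0.09. The lowest adjusted p of the 6 was 0.678, for Cox7a1 (edgeR, Benjamini-Hochberg). Its log2 fold change was -0.46 (SE 0.12). Of 5 beige fat genes 4 were listed, and 0 were highest in TG replicate 2. Tbx1, Tmem26, Cited1 and Tnfrsf9 summed to 1.59 CPM there and to between 1.07 and 3.61 CPM elsewhere.

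Lipid synthesis genes were 18, of which 13 were highest in TG replicate 2 and 7 passed the 4-fold level there. Scd1, which desaturates stearate, reached 1565 CPM in TG replicate 2 against 21.4 to 60.9 CPM elsewhere. Fasn, which builds palmitate, reached 1004 CPM against 35.6 to 62.5 CPM. Elovl6, an elongase, stood at 15.4 CPM against 0.39 to 1.5 CPM. Acaca, the acetyl-CoA carboxylase of lipid-forming tissues, stood at 178 CPM against 17.9 to 22.4 CPM. Dgat2, which forms triglyceride and was the most abundant of the list by FPKM, stood at 465 CPM against 326 to 577 CPM. Of 17 tested genes 14 were higher and 3 lower in TG and 0 were called, with a median log2 fold change of 0.25.

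**Figure D4:**
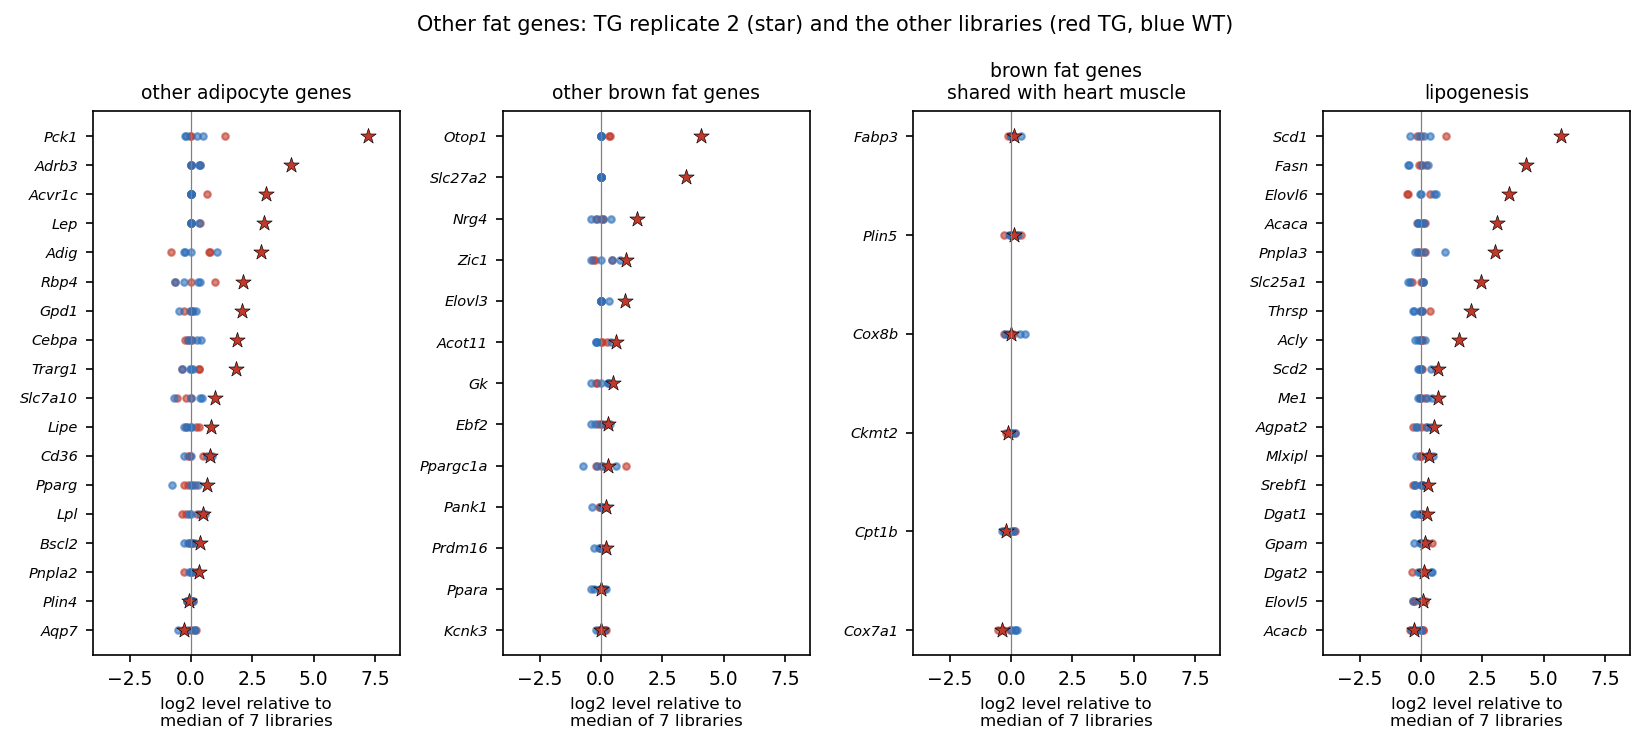
Level of each gene of the other fat lists, except the beige list, relative to the median of the 7 libraries other than TG replicate 2. The scale is log2 after adding 0.5 CPM, with TG replicate 2 as a star, the other TG libraries in red and WT in blue. The star lies far to the right for Pck1, Otop1 and Scd1 and near 0 for the 6 genes shared with heart muscle.

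Genes whose levels followed the members most closely were ranked by Pearson correlation of log2(CPM + 0.5) with the mean of the members over the 8 libraries, among 12522 other named genes with a mean of at least 1 CPM. The 10 closest were Pck1, Hp, Scd1, Prkar2b, Cdo1, Acat2, Ntrk2, Apol6, Fasn and Acp5, with r from 0.96 to 0.98. All 10 were highest in TG replicate 2, and all share these 8 libraries with the members. Hp, the haptoglobin gene, stood at 79.8 CPM there and at 0.68 to 5.94 CPM elsewhere, and Cdo1, cysteine dioxygenase, at 65.0 CPM against 0.26 to 4.60 CPM. Without TG replicate 2, a setting chosen after the data were seen, r for these 10 genes ran from 0.61 to 0.88 over 7 libraries.

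Over those 7 libraries some members kept close to the mean of the others, and the rest did so less or not at all. The correlation of each member with the mean of the others was 0.99 for Car3, 0.96 for Cidec, 0.93 for Plin1, 0.92 for Cfd, 0.91 for Adipoq and 0.80 for Retn. It was 0.48 for Dio2, -0.25 for Ucp1, -0.49 for Fabp4 and -0.58 for Cidea. These values describe 7 libraries in which several members had few counts.

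Markers of atrial muscle were also high in TG replicate 2. Of 6 atrial markers 5 were highest in TG replicate 2, and 4 passed the 4-fold level there. Their sum was 893 CPM in TG replicate 2, 63.7 to 258 CPM in the other TG libraries and 149 to 270 CPM over the WT libraries. Sln, sarcolipin, reached 79.8 CPM in TG replicate 2 and was at 14.9 in TG replicate 4, 6.18 in WT replicate 1, 4.13 in WT replicate 4 and at most 0.26 CPM in the other libraries. Its first 3 libraries are the first 3 of Adipoq, in the same order. The summed level did not follow the fat genes in every library: WT replicate 4 had the second highest sum, 270.2 CPM, and a mean fat gene level of -0.73 (log2, centred per gene). The natriuretic peptide gene Nppa, the most abundant of the list by FPKM, stood at 324 CPM in TG replicate 2 and at 90.2 CPM in TG replicate 4, below all 4 WT libraries at 143 to 219 CPM. Bmp10 was at 0 in every library but TG replicate 2, where it had a level of 0.16 CPM. The part of atrial tissue in the fat gene levels was not tested.

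**Figure D5:**
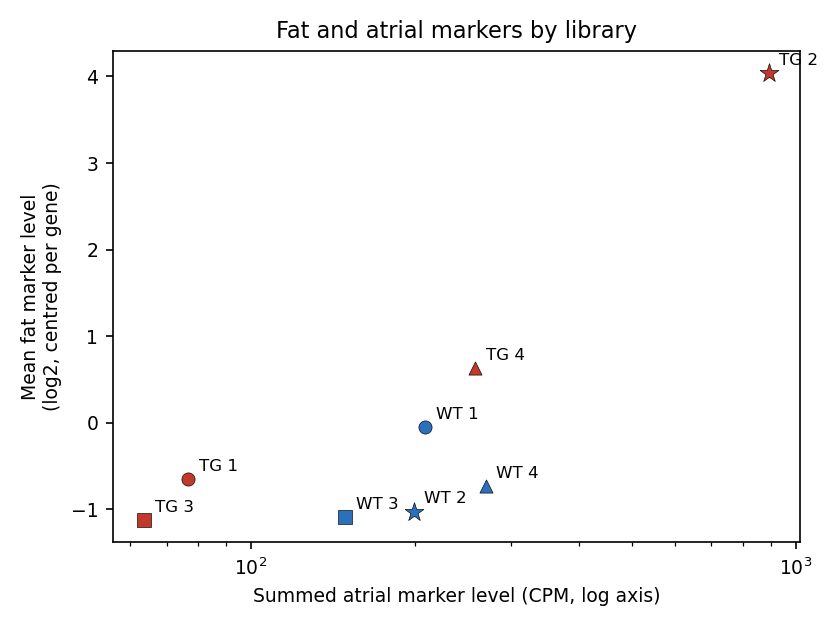
Mean level of the 10 fat marker genes (log2, centred per gene, vertical axis) against the summed level of 6 atrial markers (CPM, logarithmic horizontal axis) in each library. TG replicate 2 lies at the upper right, at 4.04 and 893 CPM, and TG replicate 4 comes next on the vertical axis at 0.63. In WT replicate 4, next on the horizontal axis at 270.2 CPM, Nppa makes up 219 CPM of the sum.

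Other cell types gave smaller differences. Skeletal muscle markers summed to 10.5 CPM in TG replicate 2 and to between 2.23 and 5.74 CPM elsewhere. Of the 8 markers 7 were highest in TG replicate 2 and 1 passed the 4-fold level there, Tnnt3 at 2.22 CPM against at most 0.52 CPM. Of the thymus list, Rag1 and Dntt were not listed in any library, and Cd1d1 stood at 5.71 CPM in TG replicate 2 and at 0.92 to 2.78 CPM elsewhere. Fibroblast and preadipocyte markers summed to 1471 CPM in TG replicate 2, within their range of 1161 to 1767 CPM over the other libraries. Lung epithelial markers were at 0 in TG replicate 2, and mesothelial markers, which line the outside of the heart, summed to 61.7 CPM there against 35.8 to 82.5 CPM elsewhere. In TG replicate 2, sums of smooth muscle (520.2 CPM), macrophage (370 CPM), lymphocyte (4.28 CPM), liver (2.86 CPM) and erythroid (14814 CPM) markers lay within the range of the other libraries. Schwann cell markers were highest there, at 20.9 CPM against 11.7 to 19.96 CPM. The part of these cell types in the levels of the fat genes was not tested.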

How the data were processed

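Polyadenylated mRNA was sequenced in 8 mouse heart libraries, 4 TG and 4 WT, grouped by sample title. Each table deposited by the authors gives, per the file headers, an expected count (estimated and not normalized), an FPKM value (per kilobase and per 1000000 fragments) and a gene length. The submitters' processing notes list Bowtie2 and mm8, with no version or purpose. The counting program and its use of strand are not given in the sources used here. Genes not listed in a library were taken as 0.

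Gene numbers were named from the RefSeq table of GRCm38.p6 (18174 of 18215 matched), which differs from mm8 and was used for names and promoters only. Promoter windows were used for 7 of 10 members, and not every chromosome was searched for members. Expected counts were rounded. The test was edgeR 4.0.16 (R 4.3.3), quasi-likelihood, TMM scaling, filterByExpr (minimum count 10, total 15), group alone, two-sided, Benjamini-Hochberg over all tested genes at 0.05. The SE is the absolute log2 fold change over the square root of F. Alternatives used DESeq2 1.42.0 and limma 3.58.1 (on log2 FPKM). The fit was tested on simulated counts. Totals ranged from 6261193 to 7897629, so 3 counts equal 0.380 to 0.479 CPM, for counting error only.

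The members, lists and tests were chosen with earlier results of these data known. Named genes were the members, the 4 genes of each other fat list with the highest ratio of top library to median of the rest, the most abundant gene of each such list, the gene with the highest such ratio and the most abundant gene of each cell type list, and the 10 genes most alike. Rag1, Dntt, Bmp10, Myl4, Myl7, Dkk3, Cox7a1, the endothelial genes other than Emcn and Cdh5 and the atrial sum were picked outside that rule, after values were seen.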

Additional observations from a re-analysis of the deposited data

Results flagged for a closer look

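In a group of 4, a library whose gap to the nearest other exceeds Dixon's 95% limit was singled out, among the genes named by the rule above. For normally distributed values, chance does this in about 1 of 20 groups for genes picked without regard to their values. The limit was applied to CPM, and a gene with counts in only 1 library of 4 passes it at any level. A library was singled out in 32 of 128 groups checked, and in 25 of them it was TG replicate 2 as the highest of TG. Many of these genes were picked for a high top library or for likeness to the members. The count therefore cannot be read against that chance rate. The genes also share that library and are not independent.

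Among the members TG replicate 2 stood apart within TG for Ucp1 (124 CPM), Adipoq (68.4 CPM), Cfd (168 CPM), Cidec (83.0 CPM), Cidea (88.5 CPM), Plin1 (40.3 CPM), Car3 (393 CPM), Fabp4 (683 CPM) and Retn (9.99 CPM). Dio2 was the member for which it did not, since TG replicate 4 was at 4.75 CPM.

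TG replicate 2 also stood apart for the other fat genes Pck1 (136 CPM), Adrb3 (7.93 CPM), Acvr1c (3.65 CPM), Lep (3.49 CPM), Otop1 (7.93 CPM), Slc27a2 (5.08 CPM) and Nrg4 (8.57 CPM). The same held for the lipid synthesis genes Scd1 (1565 CPM), Fasn (1004 CPM), Elovl6 (15.4 CPM) and Acaca (178 CPM), for the atrial gene Nppa (324 CPM), and for Hp (79.8 CPM), Prkar2b (33.5 CPM), Cdo1 (65.0 CPM) and Acp5 (15.7 CPM).

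Within WT, replicate 1 stood apart for Cfd (8.89 CPM) and Retn (1.42 CPM), and replicate 4 for the smooth muscle actin gene Acta2 (750.3 CPM, against 311 to 320.1 CPM in the other WT libraries). At 3 counts or fewer, WT replicate 1 stood apart for Lep (0.13 CPM) and Scgb1a1 (0.13 CPM), TG replicate 1 for Sftpc (0.13 CPM) and WT replicate 3 for Alb (0.45 CPM).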

How the results depend on the processing

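The number of members called was 0 in every fit run except that with the depth class as a covariate, where it was 1 (Dio2). The median log2 difference of the members was 3.62, and became 1.69 under the replicate block, 2.00 with the depth class as a covariate, -0.21 in the deeper libraries only, and between 0.57 (without TG replicate 2) and 4.18 (without WT replicate 1) when 1 library was left out. The number of genes called was 2, and 4 with no filter on low counts, 16 with DESeq2, 1 with limma at either FPKM pseudocount (1 or 0.1), 1 with the replicate block, 28 with the depth class as a covariate, 59 in the deeper and 4 in the shallower libraries only, and between 1 and 3 when 1 library was left out. It was 1 without any one of TG replicates 2 and 4 and WT replicates 2 and 3.

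In the deeper libraries only, directions turned for the fitted log2 fold changes of Cidea (-0.13) and Car3 (-1.23) and, on group means without a test, for Cfd (-2.09), Cidec (-1.36), Plin1 (-0.24) and Retn (-1.15). In the shallower libraries only, Fabp4 turned (0.13). Leaving out 1 library gave log2 fold changes of -0.22 to 0.66 for Cidea, negative without TG replicate 2 alone, and of -0.30 to 0.087 for Fabp4. None of these was called, and the cause was not tested. Same-numbered libraries deviated from their group means with correlations of 0.25, -0.29, -0.20 and 0.41, and 3 of 8 libraries were closest to their own number, so the numbers were not taken as pairs. Dio2 was not tested at a mean of at least 5 CPM or in the deeper libraries only. Depth limits the low members most: in TG replicate 3 and in WT replicates 2 and 3, 5 of 10 members had more than 3 counts.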
